A study of Sus scrofa with 23 samples.

Results

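The solute carrier (SLC) genes described here are the genes of the expression table whose symbol starts with SLC followed by a family number. They were chosen by symbol alone, and there are 147 of them among 8603 genes, of which 7371 carry a symbol. They belong to 43 numbered families. 146 are transporters or transporter subunits by name, and SLC4A1AP, named for binding SLC4A1, encodes an adaptor protein. The largest families were the mitochondrial carriers SLC25 with 24 genes, the nucleotide sugar transporter family SLC35 with 12, the zinc importers SLC39 with 9, the amino acid exchangers SLC7 with 8 and the zinc exporters SLC30 with 7. The table holds genes that the study had called differentially expressed, so it is not a sample of all genes. Well known embryonic transporters such as the glucose transporters SLC2A1 and SLC2A3 and the lactate and pyruvate transporters SLC16A1 and SLC16A3 were not analysed here.

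The study followed pig oocytes and preimplantation embryos of 3 groups by RNA-seq. Described here are 23 libraries, 1 for each condition, and every library was a pool of oocytes, of embryos or of blastocyst parts. The paper also sequenced replicates at the oocyte, 4-cell, 8-cell and blastocyst stages of the Duroc groups, which were not analysed here. IV-D denotes Duroc embryos fertilized in vivo and flushed from sows, sired by a single Duroc boar, with in vivo matured oocytes of 2-year-old sows as their first stage (8 libraries). NT-D denotes embryos cloned by transfer of nuclei from ear fibroblasts of the 1-year-old Duroc boar that sired the IV-D embryos into oocytes of hybrid sows, cultured in PZM3 medium at low oxygen, with in vitro matured oocytes, labelled as strain Duroc, as their first stage (8 libraries). NT-LW denotes embryos cloned in the same way from fibroblasts taken from the ear of a Laiwu boar, 1 year old (7 libraries), and the NT-D oocyte library also served here as their first stage. The donor fibroblasts were not analysed here. The 8 stages were the oocyte, 1-cell, 2-cell, 4-cell, 8-cell and morula stages and both parts of the blastocyst, cut by hand: TE is trophectoderm alone, and IT is the part that holds the inner cell mass (ICM) together with trophectoderm. Each group rests on donor cells or semen of 1 male, and the effects of cloning, recipient oocyte, culture and sex cannot be told apart between clones and IV-D, since the clones were male and the IV-D pools mixed both sexes. NT-D and NT-LW differ in the donor boar and hence in breed. With 1 library per condition there is no replicate error and no test between conditions, so a difference below describes these libraries.

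Expression is given in FPKM, fragments per kilobase of transcript and 1000000 mapped fragments, which can be compared between genes. A gene was called higher or lower when log2(FPKM + 1) differed by more than 1 and the higher library had at least 1 FPKM. This rule stands in for a test, and the share of all 8603 genes that it called is given with the counts over the 147 genes. Differences on the log2(FPKM + 1) scale understate the change of low genes. Whole fragments could be recovered from the steps between FPKM values. The libraries held 14952784 to 22991067 fragments, of which the 147 genes took 0.393% to 1.49%, and 3 fragments of a gene of 1 kilobase correspond to 0.130 to 0.201 FPKM. Intervals given with ratios are 95% exact binomial intervals on fragments, and they cover counting error only, not the spread between embryos. In these pooled samples, fewer cells of a type and less RNA per cell cannot be told apart.

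Marker genes placed most libraries where their labels put them. Of 10 oocyte markers, 9 were in the table, and their summed FPKM was 1172 to 4499.7 from the oocyte to the 4-cell stage and 1.08 to 6.94 in the blastocyst parts. It was still 239 in the NT-D morula against 9.34 in the IV-D and 33 in the NT-LW morula, and 205 and 266 in the cloned 8-cell libraries against 25.5 in the IV-D one. Of 10 fibroblast markers, 5 were in the table, with summed values of 69.3 to 139.7 FPKM in the cloned 1-cell to 4-cell libraries, 60.1 in the IV-D 1-cell library and 3.82 to 6.11 in the other IV-D libraries up to the 4-cell stage. Of 10 cumulus markers only HAS2 and PTGS2 were in the table, and both were at or below 0.493 FPKM in both oocyte libraries and in the 1-cell and 2-cell libraries.

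SLC proteins move sugars, amino acids, nucleosides, vitamins, metals and ions across membranes, either down a gradient or coupled to the gradient of another solute. Early mammalian embryos live largely on pyruvate, lactate and amino acids, and use more glucose around the blastocyst stage, when the trophectoderm becomes a transporting epithelium. Most SLC25 proteins sit in the inner mitochondrial membrane, where they exchange ADP for ATP and bring in phosphate, amino acids and cofactors. All 24 SLC25 genes are counted here as mitochondrial carriers by family, including the peroxisomal carrier SLC25A17. SLC30 proteins carry zinc out of the cytosol and SLC39 proteins carry it in, and light chains of the SLC7 family work as pairs with the heavy chains SLC3A1 or SLC3A2.

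Sequences upstream of 3 genes whose values are described later are shown: the zinc exporters SLC30A1 and SLC30A6, and SLC7A11, the light chain of the cystine and glutamate exchanger. They were read from the Sscrofa11.1 assembly, 250 bases upstream of the gene start in the RefSeq annotation, in the direction of the gene. Capitals mark the metal response element core, TGCACNC or TGCGCNC, in the zinc exporters, and the amino acid response element TGATGNAA in SLC7A11, on either strand. The SLC30A1 stretch lies at chr9:131633336-131633585 on the plus strand, that of SLC30A6 at chr3:107426331-107426580 on the minus strand, and that of SLC7A11 at chr8:88607833-88608082 on the plus strand.
SLC30A1: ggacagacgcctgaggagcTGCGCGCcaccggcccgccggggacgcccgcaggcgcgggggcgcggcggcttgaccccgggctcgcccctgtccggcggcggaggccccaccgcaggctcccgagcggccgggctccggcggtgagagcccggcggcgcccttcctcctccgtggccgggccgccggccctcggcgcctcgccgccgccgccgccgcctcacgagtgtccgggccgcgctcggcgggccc
SLC30A6: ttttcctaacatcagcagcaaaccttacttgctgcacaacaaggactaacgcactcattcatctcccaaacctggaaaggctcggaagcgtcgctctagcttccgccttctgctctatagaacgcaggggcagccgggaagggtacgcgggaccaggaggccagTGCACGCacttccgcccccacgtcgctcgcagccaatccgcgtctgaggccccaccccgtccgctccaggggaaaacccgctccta
SLC7A11: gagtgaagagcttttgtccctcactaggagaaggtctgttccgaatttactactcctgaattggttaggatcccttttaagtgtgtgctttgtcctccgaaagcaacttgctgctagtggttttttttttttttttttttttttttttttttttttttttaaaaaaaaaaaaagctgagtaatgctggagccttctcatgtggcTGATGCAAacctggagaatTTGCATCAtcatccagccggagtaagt
A metal response core was found in 3 of 7 SLC30 genes (42.9%), in 42 of 143 SLC genes with such a stretch (29.4%) and in 23.7% of 20664 protein-coding genes. The stretches of SLC30A5 and SLC30A7, not printed here, held no such core. The SLC7A11 stretch held TGATGNAA in both orientations. At least 1 match was found in 2.60% of all protein-coding genes, and 2 or more in 10 of them (0.0484%). A match is a description of letters, and no binding was measured.

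SLC genes had peaks at every stage of development, most of them either before the 4-cell stage or from the morula onwards. In IV-D, 53 of the 147 genes had their highest FPKM between the oocyte and the 2-cell stage, 10 with 4 cells, 25 with 8 cells and 59 in the morula or blastocyst. In shares, 36.1% peaked up to the 2-cell stage (32% of all genes), 6.80% at the 4-cell stage (14.7% of all genes), 17% at the 8-cell stage (17.4%) and 40.1% later (35.9%). The 8 stages taken singly held 19, 24, 10, 10, 25, 14, 24 and 21 of these peaks, from the oocyte through the morula to IT and TE. A peak was past the fold above the next highest stage in 31 genes, and in the others at least 1 more stage lay within the fold of the peak. The highest value was at least 5 FPKM in 114 genes.

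**Figure D1:**
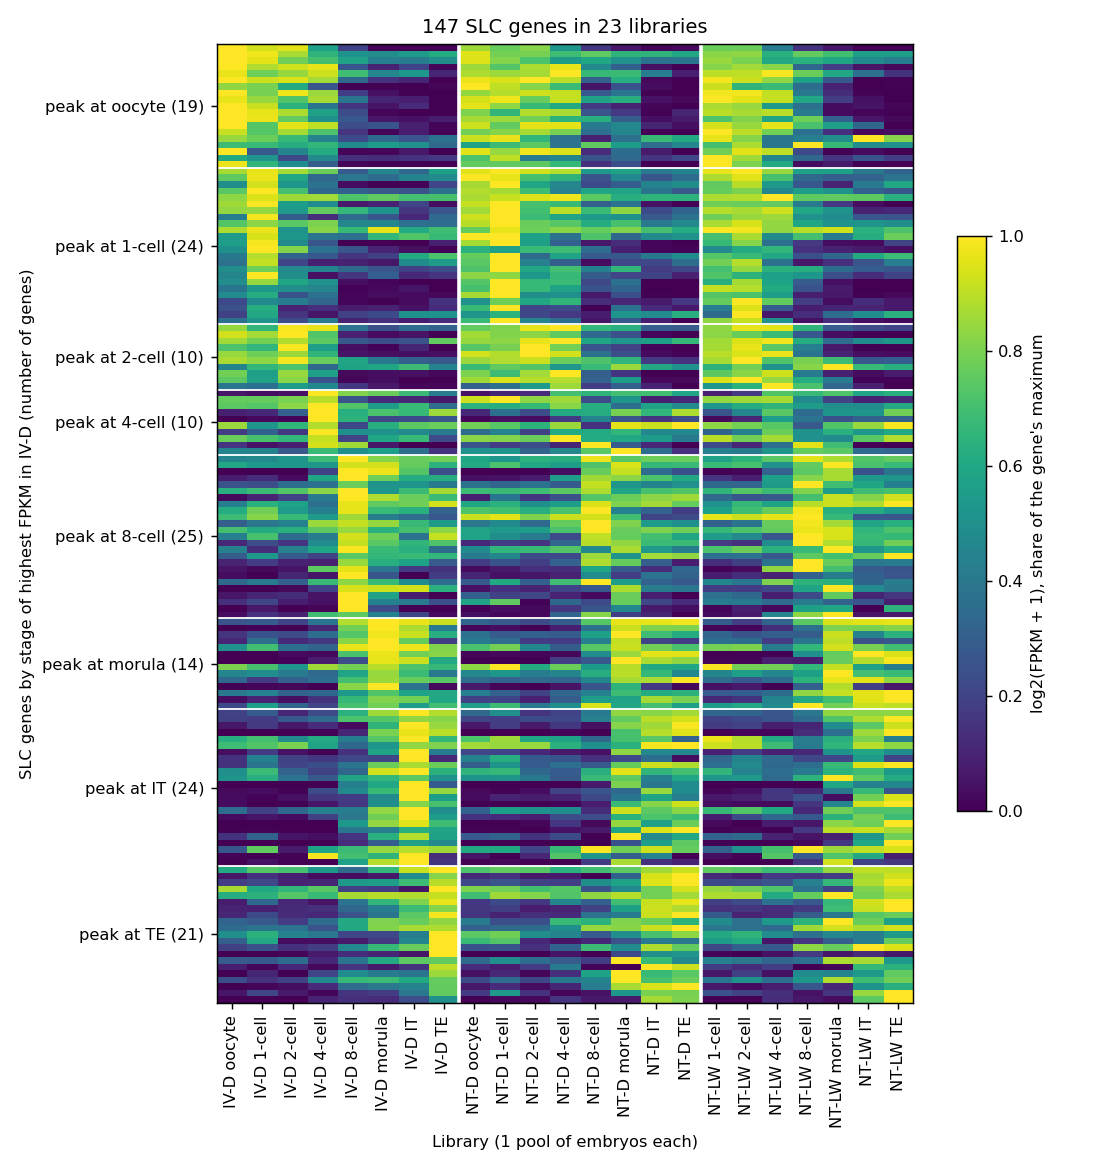
Heat map of the 147 SLC genes (rows, grouped by the stage of their highest FPKM in IV-D) in the 23 libraries (columns). Colour gives log2(FPKM + 1) as a share of the gene's own maximum. The genes with an IV-D peak in the oocyte had a median share of 1.18% in IV-D TE, 2.73% in NT-D TE and 1.3% in NT-LW TE, and those with an IV-D peak in TE had 60.8%, 85.8% and 79.1% in the 3 IT libraries.

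In NT-D the peaks of the same 147 genes fell at 10, 30, 9, 12, 20, 31, 12 and 23 from the oocyte to TE. NT-LW had 20, 13, 15, 15, 17, 23, 11 and 33. A peak in TE was thus found for 22.4% of the SLC genes in NT-LW, where 8.09% of all genes had theirs, for 15.6% in NT-D (10.4% of all genes) and for 14.3% in IV-D (13.1%). IT held 24 peaks in IV-D, 12 in NT-D and 11 in NT-LW, or 16.3%, 8.16% and 7.48% (all genes 12.4%, 7.82% and 10.4%). The morula held 14, 31 and 23, or 9.52%, 21.1% and 15.6% (all genes 10.5%, 21.4% and 22.3%). The stage of the peak was the same in IV-D and NT-D for 70 genes (47.6%, against 44.8% of all genes) and in IV-D and NT-LW for 52 (35.4%, against 32.3%). Over the 4 broader periods the same comparisons gave 76.9% (70.2% of all genes) and 72.8% (68.3%). NT-D and NT-LW share their oocyte library. Of the 25 genes with an 8-cell peak in IV-D, 9 peaked later in NT-D and 12 later in NT-LW, while 15 and 11 kept that stage. The IV-D values chose these 25, so moves away from it are in part built in. The same moves were not counted over all genes. The 8-cell stage held 17%, 13.6% and 11.6% of the SLC peaks in IV-D, NT-D and NT-LW (all genes 17.4%, 15.1% and 12.2%).

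**Figure D2:**
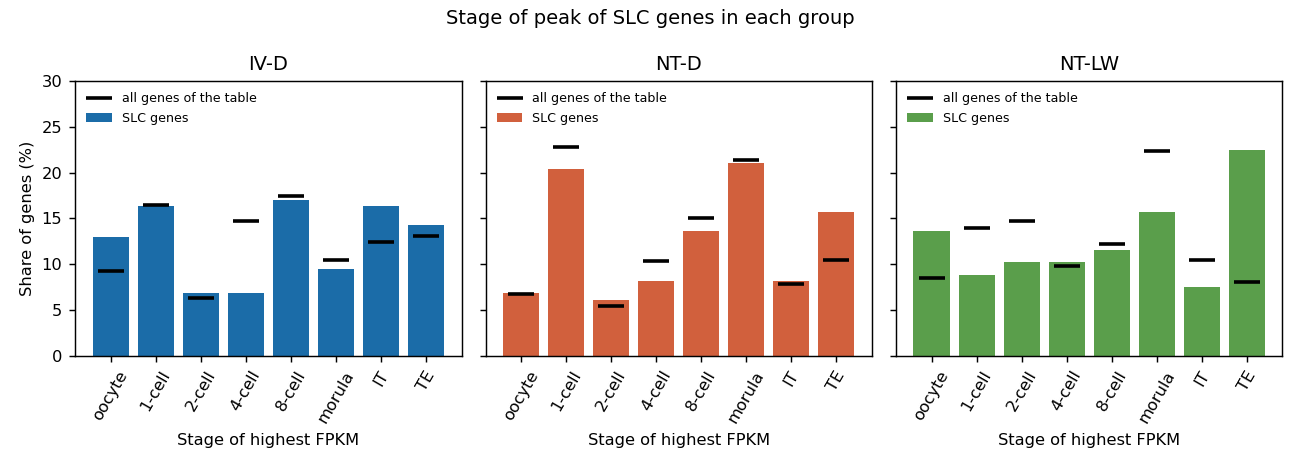
Share of genes (y axis, percent) by the stage of their highest FPKM (x axis) in IV-D, NT-D and NT-LW. Bars stand for the 147 SLC genes and black dashes for all 8603 genes. At TE in NT-LW the bar stands at 22.4% and the dash at 8.09%.

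Mitochondrial carriers showed an exchange of one ADP/ATP carrier for others. SLC25A31, the ADP/ATP carrier known from germ cells (ENSSSCG00000009078, chr8:97095503-97120940), had 208, 145, 165, 20.3, 1.81, 0.052, 0 and 0 FPKM in IV-D from the oocyte to TE. It made up 83.1% of the summed FPKM of the 4 ADP/ATP carriers in the IV-D oocyte, 43.6% in the 4-cell library and 2.74% in the 8-cell library. The in vitro matured oocytes had 95.8 FPKM, or 52.6% of their sum. SLC25A5, the carrier of proliferating cells, had 36.2, 76.7, 64.8, 22.1, 6.79, 50.1, 227 and 377 FPKM in IV-D, with a low at the 8-cell stage. SLC25A6, a further ADP/ATP carrier, had 2.4, 5.11, 0.989, 3.35, 55.9, 222, 552 and 264 FPKM, and SLC25A4, the form of heart and muscle, stayed between 0.862 and 22.2 FPKM. The sum of the 4 was thus lowest at the 4-cell stage in IV-D (46.6 FPKM) and highest in IT (801 FPKM). In both cloned groups, too, the 4-cell library had the lowest sum, at 63.2 and 72.7 FPKM. Reads of these near-identical genes can be split between them and their processed copies, so the level of each is uncertain.

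SLC25A3, which brings phosphate into mitochondria for ATP synthesis, was the most abundant SLC gene in every library from the 8-cell stage onwards except NT-LW TE, where SLC28A3 was level with it (ENSSSCG00000000886, chr5:85284405-85292336). Its values in IV-D were 6.42, 8.29, 3.79, 18.9, 848, 2069, 1645 and 1124 FPKM. NT-D had 8.49, 276, 1548, 1570.0 and 1833 FPKM from the 4-cell stage to TE, and NT-LW had 10.2, 294, 1323, 1486 and 1581. All 3 groups were low up to the 4-cell stage. The cloned 8-cell libraries were lower than that of IV-D, with log2 differences from IV-D of -1.62 and -1.53 in NT-D and NT-LW. SLC25A32, the mitochondrial folate carrier, and SLC25A13, an aspartate and glutamate carrier, went the other way, from 149 and 51.9 FPKM in the IV-D oocyte to 6.92 and 3.71 in IT. SLC25A36, a pyrimidine nucleotide carrier, peaked at the 8-cell stage in IV-D (91.7 FPKM) and at the morula in NT-D (97.4) and NT-LW (128). Of the 24 mitochondrial carriers, 8 peaked up to the 2-cell stage in IV-D, 1 with 4 cells, 6 with 8 cells and 9 later, against 7, 1, 4 and 12 in NT-D and 5, 3, 4 and 12 in NT-LW.

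Summed over genes, zinc importers led early and zinc exporters late. The 9 zinc importers had a summed 245 FPKM in the IV-D oocyte, 197 with 4 cells, 51.1 with 8 cells and 19 in TE. The 7 exporters had 44.2, 68.1, 351 and 116 FPKM at the same stages. The importers had the larger sum up to the 4-cell stage and the exporters from the 8-cell stage on, in all 23 libraries. These sums rest on a few abundant genes: the median importer had 0.588 FPKM and the median exporter 6.42 in the IV-D oocyte. In IV-D, 3 of the 9 importers peaked up to the 2-cell stage and 4 in the morula or blastocyst, and 2 of the 7 exporters up to the 2-cell stage and 4 with 8 cells.

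SLC39A8 and SLC39A10, importers of the cell surface, carried most of the maternal sum. SLC39A8 had 108, 61, 76.1, 91.2, 2.48, 0.605, 1.58 and 0.0691 FPKM in IV-D, and SLC39A10 had 85, 34.8, 47.7, 68.8, 23.2, 7.45, 10.6 and 0.628. NT-D had a similar course for SLC39A10, with 55.9, 49.7, 52, 98.4, 20.8, 22.1, 6.13 and 0.484 FPKM in NT-D, where the 4-cell library was the highest. SLC39A12 was also maternal, with 54.9 FPKM in the IV-D 2-cell library against 26.9 and 21 in the cloned libraries. SLC39A6 was higher in the clones at the 4-cell stage, with 5.08 FPKM in IV-D, 21 in NT-D and 25.1 in NT-LW.

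The exporters SLC30A1, SLC30A5, SLC30A6 and SLC30A7 all peaked at the 8-cell stage in IV-D. SLC30A1 is the exporter of the plasma membrane, and the others load the secretory pathway. SLC30A1 and SLC30A6 had a metal response core in the upstream stretch, while SLC30A5 and SLC30A7 lacked it. The part of the core in these peaks was not tested. SLC30A6 (ENSSSCG00000008518), one of the genes with a metal response core among the sequences above, had 11.9, 13.3, 17.2, 43.6, 254, 91.4, 69.2 and 77.6 FPKM in IV-D. It reached 216 FPKM in the NT-D and 204 in the NT-LW 8-cell library, so the peak fell at the same stage in all 3 groups. SLC30A7 had 0.353, 0.659, 0.119, 8.65, 45.6, 18.8, 9.7 and 10 FPKM in IV-D, with 25.8 in the NT-D and 22.1 in the NT-LW 8-cell library. SLC30A1 had 3.04 FPKM at the IV-D 4-cell and 21.7 at the 8-cell stage, with 24.4 and 23.1 in the cloned 8-cell libraries. SLC30A5 was at 2.34 FPKM before and 22.4 after the same step. The importer SLC39A1, by contrast, was an IT gene in IV-D, with 11.3 FPKM in IT and 2.97 in TE. Its log2 differences, TE minus IT, were -0.12 in NT-D and -0.37 in NT-LW, both within the fold.

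**Figure D3:**
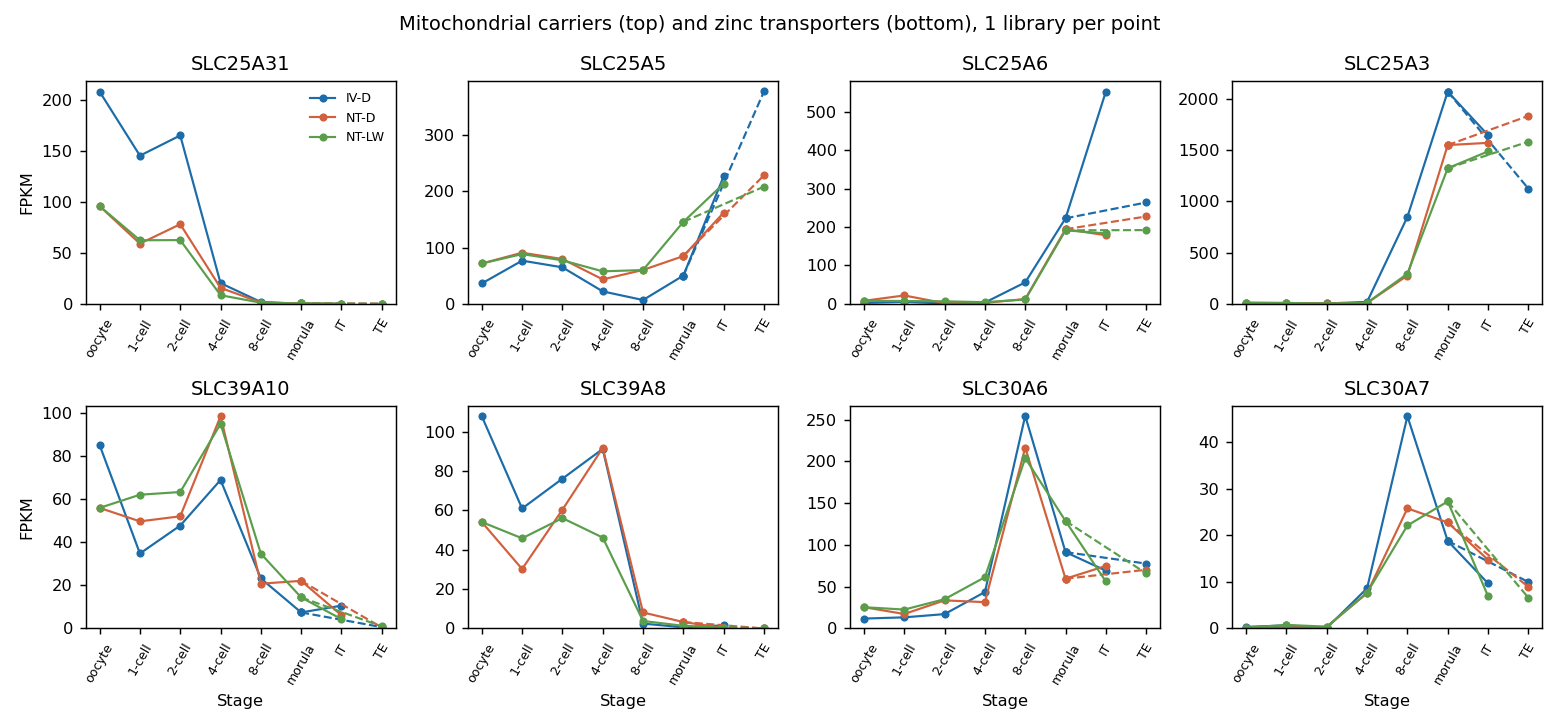
FPKM (y axis, linear, from 0) by stage (x axis) of 4 mitochondrial carriers (top) and 4 zinc transporters (bottom) in IV-D, NT-D and NT-LW, each point 1 library. Solid lines lead from the morula to IT and dashed lines from the morula to TE, and NT-LW starts from the NT-D oocyte library. SLC30A6 was highest at the 8-cell stage in all 3 groups, while SLC25A3 at that stage was at 848 FPKM in IV-D and at 276 and 294 FPKM in NT-D and NT-LW.

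Among other metal transporters, the copper importer SLC31A1 was near 0 up to the 2-cell stage and highest with 4 cells in all 3 groups, in the clones by a small margin over the morula (ENSSSCG00000034278, chr1:253868389-253893135). Its IV-D values were 0.37, 0.206, 0.278, 154, 59, 47.7, 30.1 and 7.53 FPKM. At the 4-cell stage NT-D had 33.1 and NT-LW 38.9 FPKM, and in the morula the groups had 47.7, 32.9 and 38 FPKM. The iron importer SLC11A2 also peaked at 4 cells in IV-D, at 27.2 FPKM, with 14.5 in NT-D and 7.79 in NT-LW. The iron exporter SLC40A1 was at 6.87 FPKM in IV-D IT and 7.15 in TE. SLC49A4 is listed here by its family, which includes haem transporters, and not as a known metal carrier. It had 41.8, 30, 47, 25.7, 2.41, 1.87, 2.04 and 26.6 FPKM in IV-D, with a second high value in TE.

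Amino acid transporters of families SLC3 and SLC7 were mostly late genes, with 8 of 10 highest in the morula or blastocyst of IV-D, against 35.9% of all genes. Families SLC1, SLC36 and SLC38 had 3 such genes among 11. Of all 22 genes of families SLC1, SLC3, SLC7, SLC36, SLC38 and SLC43, 5 peaked up to the 2-cell stage in IV-D, 1 with 4 cells, 4 with 8 cells and 12 in the morula or blastocyst, and 13 and 14 peaked in the morula or blastocyst in NT-D and NT-LW. SLC1A5, a glutamine transporter, was a 1-cell gene in IV-D, with 7.08, 49.9, 8.19, 3.78, 0.154, 0.0166, 0.0362 and 1.41 FPKM. SLC38A2, a neutral amino acid transporter, had 0.306, 2.07, 0.438, 0.188, 2.53, 7.83, 13.4 and 23.2, and SLC7A8, a light chain for large neutral amino acids, 0.704, 3.05, 1.13, 1.38, 2.96, 15.4, 22.4 and 15.4 FPKM. Both were late genes in the clones too, with 23.1 and 26.4 FPKM of SLC38A2 and 22.7 and 35.7 FPKM of SLC7A8 in TE of NT-D and NT-LW. SLC7A3, a transporter of arginine and lysine, peaked at the 4-cell stage in IV-D, with 25.5 FPKM against 6.35 in NT-D and 10.4 in NT-LW. SLC3A2, the heavy chain of several light chains, was at most 1.47 FPKM in any library up to the 8-cell stage and reached 109 FPKM in IV-D IT. The proline and imino acid transporter SLC6A20 was already present in oocytes, with 19.6, 19.5, 22.6, 33.2, 1.77, 0.632, 0.527 and 0.297 FPKM in IV-D. The cystine transporter SLC7A11 had 21.6, 7.5, 9.66, 13.5, 1, 0.892, 0.219 and 35.4 FPKM, with one high phase up to the 4-cell stage and another in TE. SLC6A8, the creatine transporter (ENSSSCG00000012771, chrX:124435282-124452182), had 0, 0.0527, 0, 0.644, 34.9, 93.5, 53.4 and 5.42 FPKM in IV-D.

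Less abundant amino acid and ion transporters known from embryos had these values. SLC1A1, a glutamate and aspartate transporter, had 0.086, 0.152, 0.19, 0.0723, 2.81, 1.16, 0.106 and 0 FPKM in IV-D. SLC7A5, the leucine transporter that pairs with SLC3A2, had 0, 0.228, 0, 0.523, 1.66, 1.3, 1.17 and 4.6, and SLC38A1, a glutamine transporter, 1.82, 1.62, 3.26, 2.46, 0.517, 0.201, 0.0365 and 0.0473 FPKM. In the clones their TE values were 0 and 0.234 FPKM for SLC1A1, 3.48 and 3.6 for SLC7A5 and 0 and 0 for SLC38A1, in NT-D and NT-LW. SLC12A2, a sodium, potassium and chloride cotransporter of fluid-moving epithelia, had 0.262, 0.529, 0.244, 0.229, 6.28, 3.43, 2.93 and 0.962 FPKM in IV-D. SLC10A7, a member of the bile acid transporter family, was the most abundant of the 10 genes with an IV-D peak at the 2-cell stage, with 44.4, 18.6, 85.1, 79.1, 4.59, 2.04, 3.87 and 3.05 FPKM.

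Of 7 sugar transporters, 5 peaked in the morula or blastocyst in IV-D and 4 in each cloned group. SLC2A2, a glucose transporter of liver and beta cells, had 2.84, 3.32, 7.52 and 6.33 FPKM in IV-D from the 8-cell stage to TE, 0.288, 6.42, 24.5 and 29.3 in NT-D and 0.763, 20.6, 21.9 and 18.1 in NT-LW. The log2 differences from IV-D were 1.58 and 1.43 in IT and 2.05 and 1.38 in TE of NT-D and NT-LW. SLC2A8 had 2.07 FPKM in IV-D IT and 10.2 in TE. The 4 genes of the monocarboxylate transporter family SLC16, which also includes carriers of carnitine and aromatic amino acids, did not peak in the morula or blastocyst in any group, and the pyruvate and lactate transporter SLC16A7 was at most 7.18 FPKM, in the IV-D 1-cell library.

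Nucleoside transport was dominated by SLC28A3, a sodium-coupled carrier of purines and pyrimidines (ENSSSCG00000010960, chr10:30663060-30730766). IV-D had 2.99, 2.56, 6.64, 12, 194, 223, 477 and 414 FPKM, NT-D 3.9, 23.5, 268, 741 and 966 from the 4-cell stage to TE, and NT-LW 6.06, 12.1, 214, 640.3 and 1584. The clones were past the fold below IV-D at the 8-cell stage, and their log2 differences were 0.63 and 0.42 in IT and 1.22 and 1.93 in TE of NT-D and NT-LW. Among vitamin transporters the thiamine transporter SLC19A3 was at most 0.085 FPKM up to the 4-cell stage and had 0.681, 46.6, 108 and 75.3 FPKM in IV-D from the 8-cell stage to TE. SLC46A2, of the folate transporter family, was an oocyte gene and had 46.9, 40, 16, 2.47, 0.0205, 0.02, 0.0109 and 0.0563 FPKM in IV-D and 103, 66.4, 43.9, 22.9, 0.295, 2.22, 0.159 and 0.0135 in NT-D. 

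The genes of the nucleotide sugar transporter family SLC35 were split, with 6 of 12 highest up to the 2-cell stage in IV-D and 4 from the morula on. SLC35A1, the carrier of CMP-sialic acid, had 186, 165, 95.2, 29.1, 13.4, 12.2, 16.6 and 24.1 FPKM, and SLC35F5, a member of the same family, 1.24, 1.56, 0.477, 0.558, 9.28, 10.2, 18.7 and 47 FPKM. The cell surface phosphate transporters had different courses, with SLC34A2 at 0, 0, 0, 1.37, 81.3, 70.9, 24.3 and 1.88 and SLC20A1 at 12.4, 16.9, 6.33, 11.3, 4.63, 19.7, 60.4 and 14.3 FPKM in IV-D. The peptide transporter SLC15A1 had 0.825, 1.66, 1.41, 2.89, 16.1, 42.9, 33.2 and 10.3 FPKM. The fatty acid transport protein SLC27A4 reached 12.6 FPKM in IV-D IT and 23.6 in NT-LW TE.

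Bicarbonate, proton, sodium and calcium transporters and the genes of families SLC17 and SLC18 were mostly early genes. Families SLC17 and SLC18 include vesicular and lysosomal transporters. In IV-D, 6 of 8 bicarbonate and proton transporters, both sodium and calcium exchangers and 5 of the 6 genes of SLC17 and SLC18 were highest up to the 2-cell stage. The sodium bicarbonate cotransporter SLC4A4 had 22.9, 15.1, 9.97, 16.5, 2.56, 0.404, 0.325 and 0.0196 and the sodium calcium exchanger SLC8A1 25.6, 12.5, 23.6, 15.2, 0.809, 0.166, 0.0171 and 0 FPKM. SLC17A5, the lysosomal sialic acid exporter, was highest in the IV-D 1-cell library at 57.3 FPKM, after 22.3 in the oocyte. That library also carried the fibroblast markers given above, and their part in its 24 peaks was not tested. An exception among the genes of SLC17 and SLC18 was the glutamate transporter SLC17A7, at 18.4 FPKM in the IV-D 4-cell library, 0.65 in NT-D and 4.24 in NT-LW, and at most 0.0811 in IV-D before it.

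The largest turnover between successive stages in IV-D came from the 4-cell to the 8-cell stage. Over that step 42 of the 147 were higher (all genes 32.6%) and 39 lower (all genes 26.2%). Over the earlier steps there were 19 higher (all genes 10.7%) and 6 lower (all genes 5.95%) from the oocyte to the 1-cell stage, 3 higher (all genes 5.14%) and 32 lower (all genes 19.2%) from there to the 2-cell stage and 23 higher (all genes 29.2%) and 18 lower (all genes 10.4%) to the 4-cell stage. After it there were 28 higher (all genes 10.5%) and 17 lower (all genes 11.6%) to the morula, 20 higher (all genes 6.39%) and 7 lower (all genes 6.3%) from the morula to IT and 23 higher (all genes 10%) and 24 lower (all genes 20.6%) from the morula to TE. Of the SLC genes, 19% were thus higher in the step from 8 cells to the morula and 13.6% in the step to IT, both above the share of all genes, whereas the 15.6% higher between 2 and 4 cells lay below it.

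The direction of several of these steps depended on how libraries were scaled. FPKM fixes the total of each library, and the median of all genes moved by -0.23, 0.33, 0.17, -0.11 and -0.27 (log2) over the steps from 1-cell to 2-cell, 2-cell to 4-cell, 4-cell to 8-cell, morula to IT and morula to TE. With median-ratio scaling, which centres the genes, the split became 18 higher and 18 lower (all genes 13.5% and 10.2%) from 1-cell to 2-cell, 13 higher and 40 lower (all genes 18.5% and 24.4%) from 2-cell to 4-cell and 35 higher and 13 lower (all genes 14.7% and 12.5%) from morula to TE, while it was 37 higher and 44 lower (all genes 26.4% and 30.7%) from 4-cell to 8-cell. In the clones, the 4-cell to 8-cell step had 35 higher (all genes 28.5%) and 39 lower (all genes 26.1%) in NT-D and 29 higher (all genes 25.6%) and 40 lower (all genes 23.4%) in NT-LW. The next step to the morula had 46 higher (all genes 29.3%) and 14 lower (all genes 11.1%) in NT-D and 43 higher (all genes 20.1%) and 25 lower (all genes 11.1%) in NT-LW, with 34 higher and 22 lower (all genes 18% and 17.5%) and 28 higher and 28 lower (all genes 13.3% and 15.6%) after median-ratio scaling.

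More SLC genes were past the fold between TE and IT in the fertilized embryos than in either cloned group. In IV-D, 13 of the 147 genes were higher in TE (8.84%, all genes 8.1%) and 26 were lower (17.7%, all genes 14.9%). NT-D had 1 higher (all genes 0.302%) and 5 lower (all genes 3.39%), and NT-LW 9 higher (6.12%, all genes 0.93%) and 8 lower (5.44%, all genes 4.01%). The median of the 147 log2 differences, TE minus IT, was -0.07 in IV-D, -0.03 in NT-D and 0.04 in NT-LW, beside -0.13, -0.04 and -0.19 for all genes. Their standard deviation over the genes was 1.19 in IV-D, 0.49 in NT-D and 0.58 in NT-LW, and 0.99, 0.47 and 0.50 over all genes, so both parts of the cloned blastocysts were closer to each other than those of IV-D for SLC genes and for all genes. After median-ratio scaling NT-LW had 14 higher and 7 lower (all genes 2.51% and 2.38%), IV-D 14 higher and 23 lower (all genes 9.79% and 12.5%) and NT-D 1 higher and 5 lower (all genes 0.407% and 3.02%). Whether the groups differ in these counts was not tested.

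The content of the IT libraries also differed between the groups. Of 8 ICM markers, 6 were in the table, with a summed 489 FPKM in IV-D IT, 94 in NT-D IT and 169.9 in NT-LW IT, and 22.4, 27.3 and 48.8 in the TE libraries, where most of the sum was GATA6. In the IT libraries SPIC was the largest part, with 376, 46.5 and 117 FPKM in IV-D, NT-D and NT-LW. GATA6 was nearly level there, at 37.7, 34 and 37.4 FPKM, and PDGFRA, KLF17 and GSC were lower in both cloned IT libraries. NANOG, a defining marker of the ICM, had 9.8, 5 and 3.76 FPKM in the 3 IT libraries and 0 in all 3 TE libraries. The 7 of 10 trophectoderm markers in the table summed to 1421 FPKM in IT and 1342 in TE of IV-D, to 1260.2 and 1971 in NT-D and to 1733 and 2919 in NT-LW. The part of the ICM share in the TE to IT ratios was not tested.

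**Figure D4:**
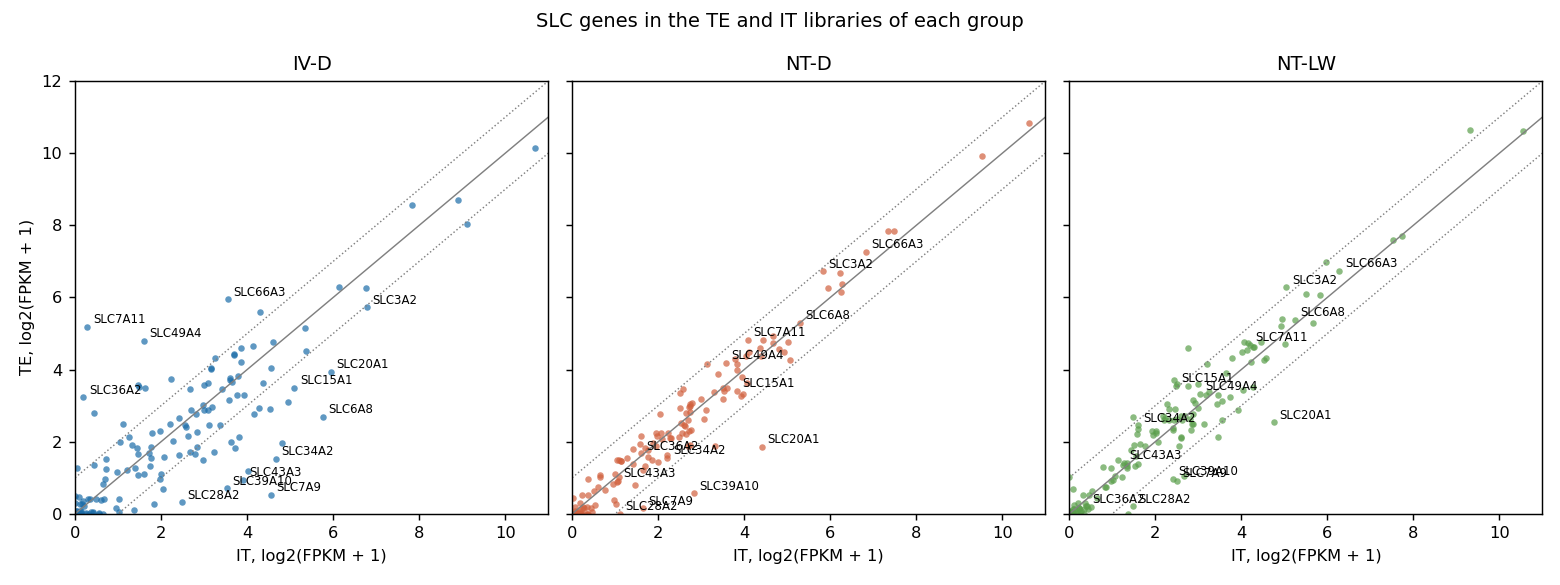
The 147 SLC genes in the IT library (x axis) and the TE library (y axis) of each group, both as log2(FPKM + 1), each point 1 gene. The solid line marks equal values and the dotted lines a difference of 1 in either direction. Points outside the dotted lines number 39 in IV-D, 6 in NT-D and 17 in NT-LW.

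Cystine transport gave the widest separation of TE and IT in IV-D. In the clones the largest log2 difference was that of SLC20A1, at -2.55 in NT-D and -2.23 in NT-LW. SLC7A11 (ENSSSCG00000022649, chr8:88608083-88690589), the gene whose upstream stretch held both copies of TGATGNAA, takes up cystine in exchange for glutamate. It had 0.219 FPKM in IV-D IT (12 fragments) and 35.4 in TE (1493 fragments), a TE to IT ratio of 161 (interval 92.1 to 313). In the clones it was high in both parts, with 15.9 and 27.4 FPKM in NT-D, a ratio of 1.73 (interval 1.58 to 1.88), and 17.3 and 24.8 in NT-LW, a ratio of 1.44 (interval 1.32 to 1.56). Of the 7 trophectoderm markers, DAB2 (137 and 182 FPKM in IT and TE of IV-D) and GATA3 (5.42 and 14) were higher in TE. KRT8 (626 and 549), KRT18 (627 and 582), GATA2 (7 and 6.91), TFAP2C (7.86 and 5.58) and ELF3 (11.1 and 2.4) were not. The part of these markers in the SLC7A11 ratio was not tested. The other cystine light chain, SLC7A9, was an IT gene. SLC7A9 had 22.5 FPKM in IT and 0.443 in TE of IV-D, 2.13 and 0.11 in NT-D and 4.66 and 0.889 in NT-LW, which gives TE to IT ratios of 0.0197 (interval 0.0129 to 0.0287), 0.0517 (interval 0.0205 to 0.109) and 0.191 (interval 0.144 to 0.249). Its heavy chain SLC3A1 had log2 differences of -0.62, -1.43 and -1.63. SLC3A2, the partner of SLC7A11, was higher in IT in IV-D (109 and 51.8 FPKM in IT and TE) and higher in TE in NT-LW (32.1 and 76.5), with 55.6 and 105 in NT-D.

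Genes past the fold and lower in TE than in IT in all 3 groups were SLC7A9, SLC20A1, SLC28A2 and SLC39A10. None of the 147 was past the fold and higher in TE in all 3. NT-D had only 1 such gene (all genes 0.302%), SLC7A3, whose log2 difference in IV-D was 0.87, within the fold. NT-D had 5 lower genes (all genes 3.39%), and the overlap of the 3 groups was not counted over all genes. SLC20A1, a sodium phosphate cotransporter, had 60.4 and 14.3 FPKM in IT and TE of IV-D, 20.2 and 2.63 of NT-D and 26.1 and 4.78 of NT-LW, ratios of 0.237 (interval 0.217 to 0.259), 0.13 (interval 0.106 to 0.157) and 0.183 (interval 0.159 to 0.21). SLC39A10 had ratios of 0.0593 (interval 0.0439 to 0.0786), 0.079 (interval 0.0562 to 0.108) and 0.219 (interval 0.173 to 0.274). Both were thus well below 1 in fertilized and cloned blastocysts alike. SLC28A2, a purine nucleoside transporter, was lower in level, with 4.56 FPKM in IV-D IT, and its NT-D TE library held no fragment against 73 in IT, which makes it at least 17.9-fold lower there when TE is set at 3 fragments.

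Most genes past the fold in IV-D were within it in the clones. SLC34A2, a sodium phosphate cotransporter of epithelia, had 24.3 FPKM in IT and 1.88 in TE of IV-D, a TE to IT ratio of 0.0774 (interval 0.064 to 0.0928), and ratios of 0.532 (interval 0.432 to 0.653) in NT-D and 2.2 (interval 1.84 to 2.64) in NT-LW. The creatine transporter SLC6A8 had 53.4 and 5.42 FPKM in IV-D, 38.2 and 38.1 in NT-D and 37 and 40.6 in NT-LW. SLC6A8 lies on the X chromosome, and the sexes of the pools differ between clones and IV-D. For SLC6A8 it was thus the IV-D TE library that stood apart from the other 5. SLC43A3, a purine base transporter that is counted with the amino acid family SLC43, had 14 and 0.929 FPKM in IV-D, and at most 1.67 in the 4 cloned libraries. SLC30A2, a vesicular zinc exporter, had 15.2 and 1.26 FPKM in IV-D, and between 1.97 and 2.86 in the cloned libraries. For these 2 genes the IV-D IT library was the one that stood apart.

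On the TE side of IV-D, SLC49A4 had a TE to IT ratio of 13.1 (interval 11.1 to 15.6), SLC36A2, a transporter of small amino acids, of 59 (interval 22.7 to 219) on 4 fragments in IT, SLC66A3 of 5.7 (interval 5.09 to 6.39) and the zinc importer SLC39A2 of 16.3 (interval 8.6 to 34.9). The same ratios were 1.59 (interval 1.45 to 1.74), 1.1 (interval 0.739 to 1.62), 1.36 (interval 1.3 to 1.42) and 0.831 (interval 0.668 to 1.03) in NT-D, and 1.26 (interval 1.12 to 1.41), 0.487 (interval 0.112 to 1.69), 1.37 (interval 1.31 to 1.44) and 0.92 (interval 0.671 to 1.26) in NT-LW. SLC36A2 may share reads with its neighbours SLC36A1 and SLC36A3 where their sequences are alike. Over the 13 genes higher in TE in IV-D, the median log2 difference was 2.05 in IV-D, 0.26 in NT-D and 0.40 in NT-LW, and over the 26 lower ones it was -1.63, -0.36 and 0.04. The IV-D values chose both lists, so smaller values in the other groups are in part built in.

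The genes past the fold were spread over several roles, whose counts can be read against the shares of all genes given above (8.1% higher and 14.9% lower in IV-D). Both phosphate transporters and 2 of 3 nucleoside transporters were lower in IV-D TE. Of the 16 zinc transporters, 1 was higher and 6 were lower in TE in IV-D, 0 and 1 in NT-D and 0 and 1 in NT-LW. The 22 amino acid transporters of families other than SLC6 had 4 higher and 5 lower in IV-D, 1 and 2 in NT-D and 4 and 2 in NT-LW. Of the 7 sugar transporters, 3 were higher in TE in IV-D (SLC2A8, SLC2A13 and SLC50A1), 0 in NT-D and 1 in NT-LW. Mitochondrial carriers had 2 higher and 3 lower of 24 in IV-D, 0 and 0 in NT-D and 0 and 1 in NT-LW. In NT-LW the higher ones included SLC7A4, with 5.78 and 23.3 FPKM in IT and TE, the basic amino acid transporter SLC7A3, with 4.45 and 12, and SLC28A3, with 640.3 and 1584.

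Cloned and fertilized embryos were compared stage by stage, and NT-D and NT-LW share the IV-D library they are set against. At the 4-cell stage 18 of the 147 were higher (all genes 8.5%) and 10 lower (all genes 11.5%) in NT-D, and 22 of the 147 were higher (all genes 9.45%) and 6 lower (all genes 8.26%) in NT-LW. With median-ratio scaling, NT-D had 24 higher and 8 lower (all genes 10.4% and 10.2%). SLC31A1 was lower, with log2 differences from IV-D of -2.19 and -1.96 in NT-D and NT-LW, as were the glutamate transporter SLC17A7 (-3.56 and -1.89) and the carnitine transporter SLC16A9 (-2.40 and -1.62). SLC46A2 was higher by 2.79 and 2.72, SLC17A5 by 1.93 and 2.29 and SLC39A6 by 1.86 and 2.10. At the 2-cell stage of IV-D, SLC31A1, SLC17A7 and SLC16A9 had 0.278, 0.0293 and 0.18 FPKM, while SLC46A2 and SLC17A5 had 16 and 11.2. The summed oocyte markers stood at 1172 FPKM in IV-D and at 1943 and 1910.3 in the cloned 4-cell libraries, and their part in these differences was not tested.

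More SLC genes were past the fold at the 8-cell stage than at any other stage, in NT-D and in NT-LW. With a minimum of 5 FPKM, NT-D had 26 at the 8-cell stage and 27 in IT. There 19 of the 147 were higher (all genes 9.38%) and 24 lower (all genes 15.1%) in NT-D, and 28 of the 147 were higher (all genes 14.5%) and 22 lower (all genes 15.3%) in NT-LW, with 21 higher and 17 lower (all genes 11.8% and 11%) in NT-D after median-ratio scaling. SLC28A3 had 194 FPKM in IV-D, 23.5 in NT-D and 12.1 in NT-LW. SLC6A8 had 34.9, 4.44 and 4.35 FPKM, and SLC25A6 55.9, 12.5 and 11.3. All 3 had their IV-D peak at a later stage. SLC25A5 went the other way, with 6.79 FPKM in IV-D, 60.1 in NT-D and 60 in NT-LW, and so did SLC49A4 (2.41, 12.3 and 13.9) and SLC35A1 (13.4, 51.5 and 52.6). SLC25A5, SLC49A4 and SLC35A1 had 36.2, 41.8 and 186 FPKM in the IV-D oocyte. The oocyte markers were higher in these cloned libraries too, as given above, and their part was not tested.

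In the blastocyst parts the SLC genes were more often higher in cloned TE than genes at large. In TE 14 of the 147 were higher (all genes 2.43%) and 6 lower (all genes 3.28%) in NT-D, and 22 of the 147 were higher (all genes 4.92%) and 8 lower (all genes 8.03%) in NT-LW, which put 9.52% and 15% of the SLC genes on the higher side. SLC6A8 was at 5.42 FPKM in IV-D TE and at 38.1 and 40.6 in the cloned TE, SLC1A5 at 1.41, 6.97 and 11.2, and SLC2A2 at 6.33, 29.3 and 18.1. These carry creatine, glutamine and glucose. The lower ones were SLC36A2 (8.38, 2.21 and 0.156 FPKM), SLC3A1 (8.9, 2.71 and 1.05) and SLC20A1 (14.3, 2.63 and 4.78).

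In IT 16 of the 147 were higher (all genes 7.81%) and 20 lower (all genes 12.7%) in NT-D, and 14 of the 147 were higher (all genes 7.17%) and 17 lower (all genes 11.3%) in NT-LW. SLC7A11 was higher, with log2 differences from IV-D of 3.79 and 3.91 in NT-D and NT-LW, followed by SLC66A3 (3.28 and 2.74) and SLC49A4 (1.96 and 1.43). All 3 were past the fold higher in TE than in IT within IV-D. SLC43A3 (-2.86 and -2.64), SLC34A2 (-2.45 and -3.06) and SLC30A2 (-2.45 and -2.26) were lower, and all 3 were lower in TE than in IT within IV-D. Both comparisons of these genes use the IV-D IT library. SLC66A3 had 10.7 FPKM in IV-D IT, 113 in NT-D IT and 76.7 in NT-LW IT, and the TE values were ordered alike (60.8, 153 and 105 FPKM). These IT differences went with the lower ICM marker sums of the cloned IT libraries given above, and the part of these markers was not tested.

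At the oocyte, 1-cell, 2-cell and morula stages the splits moved with the scaling. The higher side still led after it in the oocyte, in the NT-LW 2-cell and in the NT-D morula library. It no longer led in both cloned 1-cell libraries, in the NT-D 2-cell and in the NT-LW morula library. In vitro matured against in vivo matured oocytes had 18 higher (all genes 10.5%) and 1 lower (all genes 1.19%), and after median-ratio scaling 11 higher and 4 lower (all genes 5.34% and 5.39%). SLC25A31 had a log2 difference of -1.11 and SLC46A2 of 1.13 in the in vitro matured oocytes. The 1-cell stage had 15 higher (all genes 15.2%) and 5 lower (all genes 2.84%) in NT-D and 15 higher (all genes 17%) and 10 lower (all genes 3.37%) in NT-LW, with 5 higher and 9 lower (all genes 5.86% and 8.03%) and 5 higher and 19 lower (all genes 8.31% and 9.98%) after scaling. The 2-cell stage had 3 higher (all genes 4.88%) and 2 lower (all genes 1.43%) in NT-D and 32 higher (all genes 28.2%) and 3 lower (all genes 2.85%) in NT-LW, with 2 higher and 3 lower (all genes 2.35% and 4.38%) and 16 higher and 12 lower (all genes 10.4% and 15.9%) after scaling. The morula had 36 higher (all genes 17.1%) and 3 lower (all genes 3.55%) in NT-D and 20 higher (all genes 10%) and 7 lower (all genes 3.5%) in NT-LW, with 23 higher and 5 lower (all genes 11.3% and 5.71%) and 8 higher and 10 lower (all genes 5.43% and 4.92%) after scaling. The medians of all genes stood at 0.15 in the oocyte, at 0.31, 0.19 and 0.23 in NT-D and at 0.23, 0.48 and 0.18 in NT-LW at the 1-cell, 2-cell and morula stages.

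Single genes at these stages had differences larger than those shifts. At the 1-cell stage the log2 differences from IV-D in NT-D and NT-LW were -1.28 and -1.21 for SLC25A31, -1.41 and -1.16 for SLC35A1 and -1.30 and -1.60 for SLC16A7. On the higher side stood SLC38A8 (2.15 and 1.73), SLC4A1AP (1.30 and 1.26) and the peroxisomal carrier SLC25A17 (1.12 and 1.22). At the 2-cell stage SLC25A31 (-1.07 and -1.39) and SLC39A12 (NT-LW -1.35) were lower, and the vesicular monoamine transporter SLC18A2 was higher (1.52 and 2.15). SLC25A31 was thus past the fold lower in both cloned groups at the 1-cell and 2-cell stages, and also in the in vitro matured oocytes, which are not cloned embryos. In the morula SLC39A6 (1.33 and 1.22), SLC35G1 (1.57 and 1.22) and SLC35A1 (1.19 and 1.55) were higher and SLC3A1 (-1.31 and -1.11) was lower. The NT-D morula library was the one with the retained oocyte markers, and 120 SLC genes reached 1 FPKM in it, the most of any library.

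**Figure D5:**
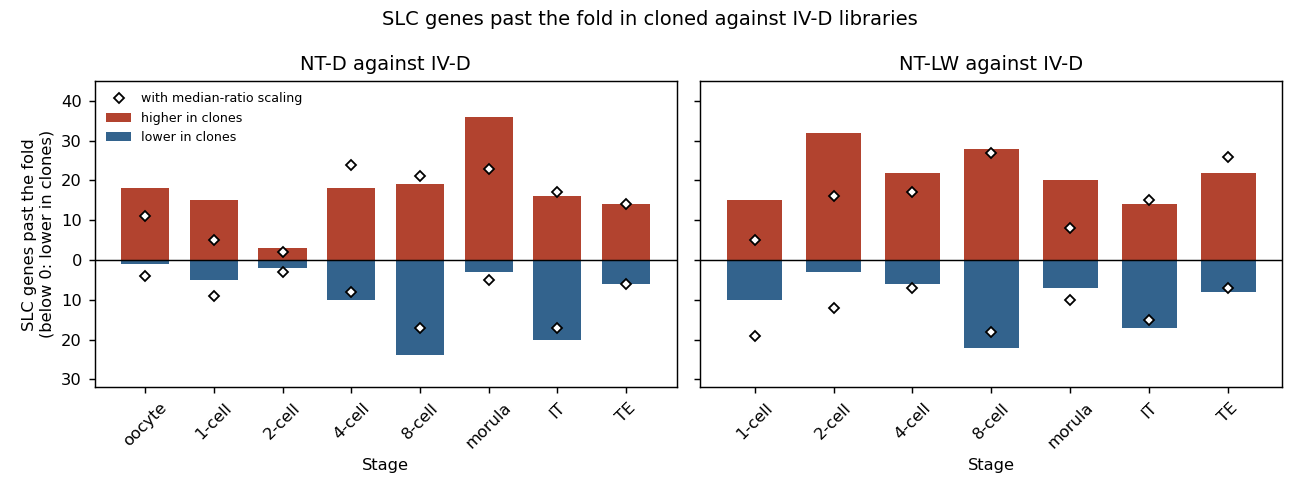
Number of SLC genes past the fold (y axis; bars above 0 higher, below 0 lower in the clones) at each stage (x axis) in NT-D and NT-LW against IV-D. Diamonds give the same counts after median-ratio scaling. At the NT-LW 2-cell stage 32 higher genes became 16 after scaling, while at the TE stage the NT-D counts stayed at 14 and 6.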

How the data were processed

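Amplified cDNA (SMART-Seq v4 kit, which does not keep the strand) from 23 pools was sequenced. Per the labels, the authors aligned reads with HISAT2 2.0.4 to Sscrofa11.1 and counted them with HTSeq 0.9.1, and they deposited FPKM of 8603 genes they had called. DESeq is also named in the submitters' processing notes. Overlapping and antisense genes cannot be told apart. Depths, gene lengths and whole fragments were recovered from the FPKM steps (largest relative deviation from a whole number 9.5e-08) and the recovery was checked on simulated data. Python 3.11.15, numpy 2.4.6, pandas 2.3.3 and scipy 1.17.1 were used. Calls needed a difference over 1 in log2(FPKM + 1), pseudocount 1, and 1 FPKM in the higher library. Alternatives were a pseudocount of 0.1, a minimum of 5 FPKM or none, a table sum of 1000000 and median-ratio scaling.

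The members and lists were chosen with earlier results of these data known. Genes named were 26 of 41 listed embryonic transporters found in the table, the 3 most abundant peaking at each IV-D stage, the 5 with the largest TE to IT differences each way in IV-D, those past the fold in 1 direction in all 3 groups, up to 3 each way shared by both cloned groups at a stage, and the 5 highest medians. Any other gene in the text was picked with its values in view. RefSeq positions were matched by symbol for 144 genes.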

Additional observations from a re-analysis of the deposited data

Results flagged for a closer look

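SLC3A2 and SLC15A1 were past the fold in opposite directions in the blastocyst parts of different groups. The log2 difference of TE minus IT for SLC3A2, the heavy chain of amino acid exchangers, was -1.06 in IV-D (3277 and 1200 fragments in IT and TE) and 1.23 in NT-LW (1067 and 2092 fragments), with 0.91 in NT-D. For SLC15A1, the intestinal type of peptide transporter, it was -1.60 in IV-D (33.2 and 10.3 FPKM) and 1.06 in NT-LW (4.61 and 10.7 FPKM), with -0.41 in NT-D. Each group had 1 library of each part, so the difference between the groups was not tested.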

How the results depend on the processing

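With 1 library per condition no library could be left out and no replicate error was available. No paired analysis was possible because each condition has 1 library and no replicate numbers to pair, and a fit with the stage as a block was not run. No call of TE against IT of a named gene changed its sign under a pseudocount of 0.1 or median-ratio scaling. With a pseudocount of 0.1, NT-D had 8 genes lower in TE, and NT-D against IV-D had 32 genes past the fold in the oocyte, 32 at the 1-cell, 11 at the 2-cell and 43 at the 4-cell stage, and IV-D had 40 from the oocyte to the 1-cell stage. With a minimum of 5 FPKM, 3 were lower in TE in NT-D and 4 in NT-LW. NT-D against IV-D then had 26 past the fold at the 8-cell stage and 22 in the morula, and NT-LW 22 at the 2-cell and 31 at the 8-cell stage. IV-D had 16 from the oocyte to the 1-cell stage and 31 from the morula to TE, and NT-LW 44 from the 8-cell stage to the morula. With each library scaled to the same sum, there were 31 at the 1-cell stage in NT-D and 54 at the 2-cell stage in NT-LW. With median-ratio scaling, 14 were higher in TE in NT-LW. A minimum of 5 FPKM removes genes by its construction, and the cause of the other moves was not tested. Of the values in the report, the other totals of genes past the fold, the other TE against IT counts and the peaks in each period stayed within 1.5 times their value under every alternative tried, while the splits by direction at single stages moved further, with median-ratio scaling as given there.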
